A study of Sus scrofa with 22 samples.

Results

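The aquaporins are membrane channels for water, and some of them, the aquaglyceroporins, also pass glycerol and hydrogen peroxide. Each channel works as a tetramer in which every subunit holds its own pore, and water follows osmotic gradients that ion and solute transporters set up. In tongue and other stratified epithelia AQP3 is known from the basal and middle cell layers, AQP5 from the apical membrane of salivary acinar cells and AQP1 from blood vessel endothelium. AQP4 is the water channel of fast skeletal muscle fibres and astrocytes, AQP7 the glycerol channel of fat cells, AQP9 a solute channel of liver and white blood cells, and AQP11 a channel of inner membranes such as the endoplasmic reticulum.

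The genes described are AQP1, AQP3, AQP4, AQP5, AQP7, AQP9 and AQP11, 7 of the 27376 genes counted in 16 libraries and of the 29850 counted in the other 6. They were chosen by name, together with 3 contrasts, with the AQP3 change in 2 of these contrasts already known. The levels of these genes in the 2 media contrasts are therefore descriptions without a test. The 7 genes and the lists of other genes used below were also chosen with earlier results of these data known. P-values and list shares below thus do not come from gene sets fixed without the data. Poly-A RNA of pig foliate papillae, which are taste bud-bearing folds on the sides of the tongue, and of organoids grown from them was sequenced in 22 libraries. Passage 1 organoids in the growth medium LPM (5 libraries) stood beside the foliate papillae of pigs with the same numbers, 1 to 5 (5 libraries). In an FGF10 experiment, organoids in LPM without FGF10 (3 libraries) stood beside organoids in LPM (3 libraries), which holds FGF10 at 100 ng/ml. In a CQ experiment, organoids kept in LPM to day 10 and then in CQ until day 16 or 17 (3 libraries) stood beside organoids kept in LPM (3 libraries).

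Per the labels' protocols, LPM holds, besides FGF10, EGF, FGF2, R-spondin 2, noggin, SHH, Wnt3a, insulin, nicotinamide, N-acetylcysteine, forskolin, prostaglandin E2 and inhibitors of GSK3, TGF-beta receptors, p38 and ROCK, so that all passage 1 and FGF10 experiment organoids shared these. The meaning of LPM and CQ, the make-up of CQ, the day on which the LPM libraries of the CQ experiment were taken, and the age, sex and breed of the pigs are not stated in the labels. Culture time and medium cannot be told apart in the CQ contrast. Papillae went through another RNA kit than organoids, so kit and tissue cannot be told apart either. The labels name no animal for the 12 libraries of the media experiments and call both the cells of tissue and those of organoids stem and mature taste cells. Where nothing says that libraries came from separate animals, p-values measure only the spread between these libraries.

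Library totals lay between 14.67 and 27.77 M counts, with the lowest, 14.67 to 16.0 M, in CQ, against 19.62 to 26.01 M in its LPM libraries. Genes detected per library numbered 14014 to 16005 in CQ and 17489 to 17920 in its LPM libraries. The CQ libraries varied most among themselves. Among genes averaging 10 to 30 counts, the median ratio of variance to mean was 12.73 in CQ and 1.751 in its LPM libraries, where counting error alone gives 0.693. Of 8 taste cell markers 6 were called, all lower in organoids than in papillae, with summed levels of 34.5 to 54.8 CPM (a gene's counts scaled to the same library size in each library) in organoids and 115.5 to 271.7 CPM in papillae. All 6 basal epithelial markers were detected in every group.

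All 7 genes have the same coordinates in both annotations (Sscrofa11.1 positions), and no exon base of any of them is shared with another gene. AQP3 lies on chromosome 10 from 33045374 to 33050285, plus strand, and AQP7 follows it on the same strand from 33098746 to 33130245, 48460 bases further on. AQP5 lies on chromosome 5 from 15876527 to 15879608, plus strand, between AQP2 and AQP6 with gaps of 7961 and 8471 bases. AQP1 lies on chromosome 18 from 42063482 to 42076741, minus strand, and AQP4 on chromosome 6 from 111407632 to 111422169, minus strand. AQP9 lies on chromosome 1 from 113798380 to 113848452, minus strand, and AQP11 on chromosome 9 from 12065550 to 12076339, plus strand. Values are sums over the annotated exons of each gene, which come to 892 bases for AQP3, 877 for AQP5, 851 for AQP11, 904 for AQP9, 3190 for AQP1, 3364 for AQP7 and 6693 for AQP4.

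By mean TPM (counts per exon length, scaled to the library) AQP3 was the most abundant aquaporin in tissue and in every organoid group but CQ. AQP1, AQP3, AQP4, AQP5 and AQP7 were lower in passage 1 organoids than in papillae, while AQP11 was higher. AQP1 and AQP4 had no count in passage 1 organoids, and AQP9 had none in either group. This contrast was tested with edgeR's quasi-likelihood test and Benjamini-Hochberg adjustment over 16311 genes, and adjusted p-values under 0.05 are named calls. So many genes differed, 67.5% by calls (32.4% higher, 35.1% lower) and 54.1% by groups that do not overlap (24.5% higher, 29.6% lower), that a call alone does not set an aquaporin apart from other genes. Of the 7 genes 6 passed the filter on low counts. AQP1, AQP4, AQP5 and AQP7 passed it only through their papilla counts, so the filter itself favoured a lower level in organoids. These genes are given as descriptions with no p. Scaled to library size alone, the calls over all genes split into 6771 higher and 4592 lower, against 5281 higher and 5730 lower with the TMM scaling used here, and the median log2 difference of all genes moved to 0.28, against -0.01.

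**Figure D1:**
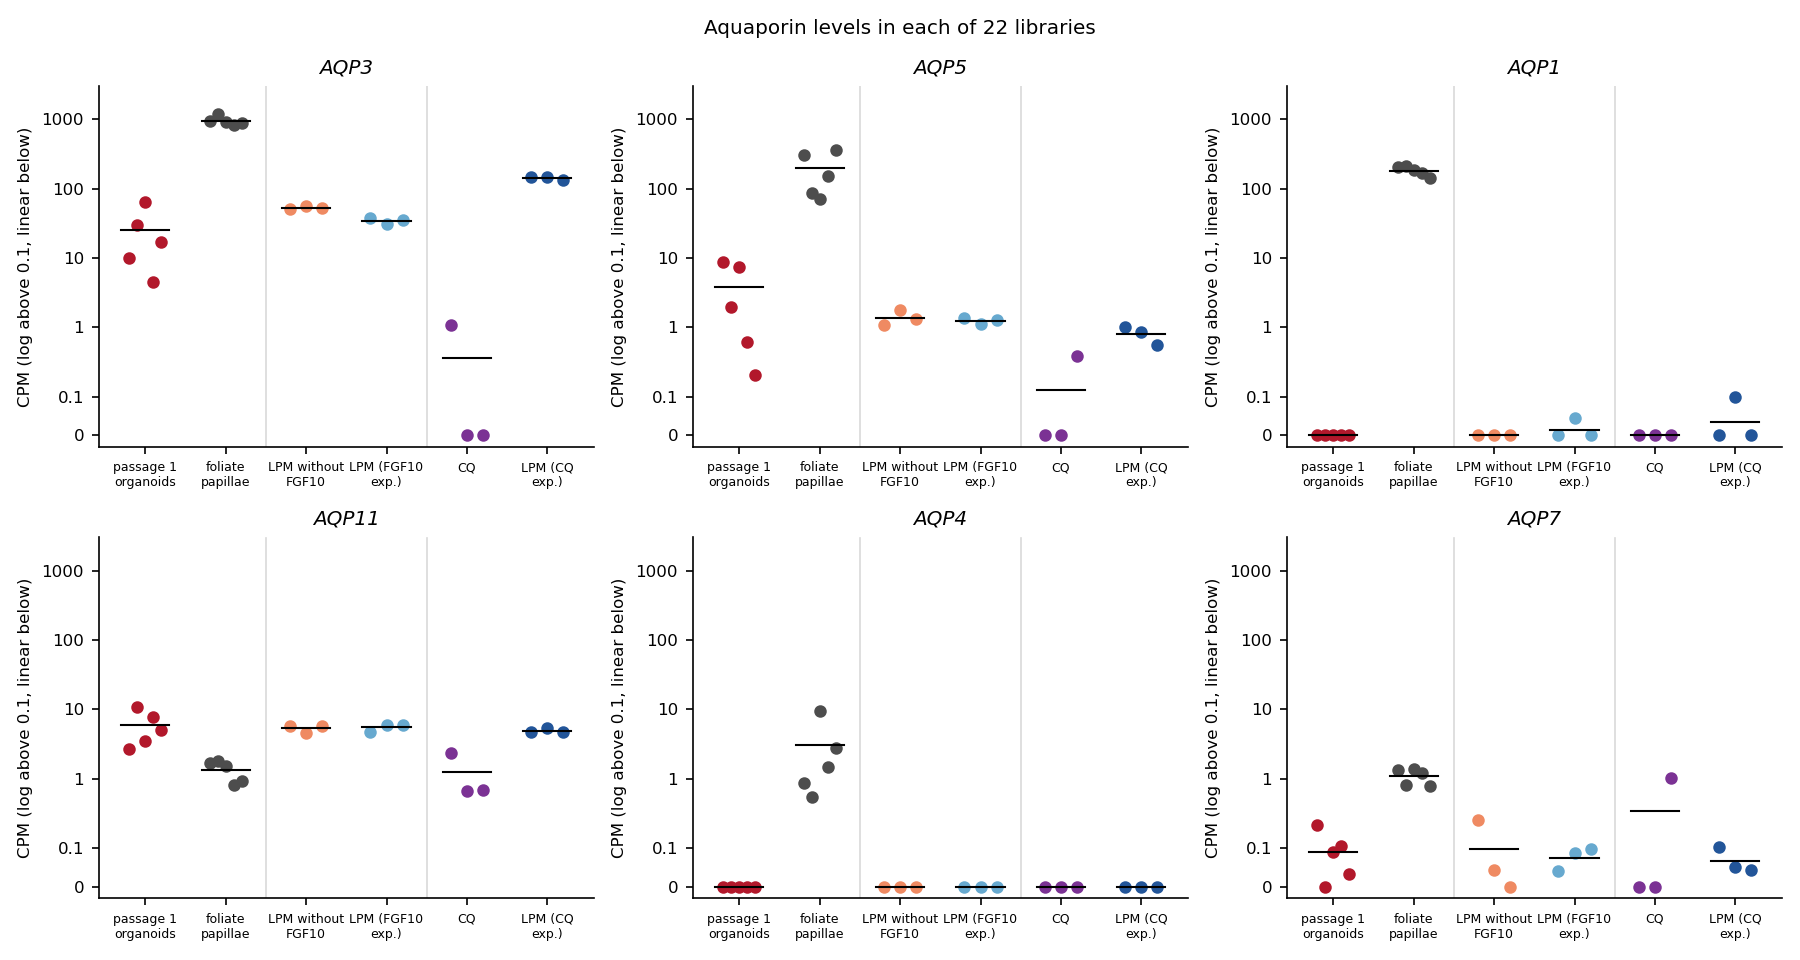
Level of 6 aquaporins in each of 22 libraries, in CPM scaled together over all libraries (log axis above 0.1, linear below), for the 6 groups named under each panel. Points are libraries and bars are group means; AQP3, AQP5, AQP1, AQP4 and AQP7 sit lower and AQP11 sits higher in all 5 passage 1 organoid libraries than in all 5 papillae, and AQP3 is at 0 in 2 of 3 CQ libraries.

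AQP3, the water and glycerol channel of stratified epithelia, had 237, 691, 1414, 124 and 510 counts in the organoids of pigs 1 to 5 and 14052, 21645, 16542, 12291 and 12316 counts in the papillae of pigs 1 to 5. On the CPM scale of this pair of groups that was 9.63, 28.3, 62.1, 4.22 and 16.7 CPM in organoids and 867, 1084, 838, 781 and 825 CPM in papillae. The groups were far apart, since the highest organoid library, at 62.1 CPM, was well below the lowest papilla, at 781 CPM. AQP3 averaged 24.2 ± 23.03 CPM in organoids and 879 ± 119 CPM in papillae (SD, n = 5 each), a 36.4-fold lower level in organoids (log2 fold change -5.18, SE 0.65, edgeR adjusted p = 3.20e-05). The organoid of pig 3 stood highest, and without it the log2 fold change was -5.89.

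The organoid libraries differed among themselves in AQP3 far more than in most genes. The SD of log2 CPM of AQP3 was 1.42 among the 5 organoid libraries, against a median of 0.279 over the 9731 genes that averaged at least 10 CPM in organoids, and 1.48% of these genes had a larger SD. Among papillae the SD was 0.183, close to the median of 0.196 there, and 55.1% of 10577 genes had a larger one. Of the epithelial marker sums, that of 8 suprabasal genes was 1549, 3115, 2302, 1614 and 2166 CPM in the organoids of pigs 1 to 5. The organoids of pigs 1 and 4, with the least AQP3, also had the lowest suprabasal sums, and pig 3, with the most AQP3, had the sum after the highest. The sum of 6 basal genes did not follow AQP3 in the same way. It was 7364, 6206, 6812, 3598 and 6608 CPM in the organoids of pigs 1 to 5, highest in pig 1 and lowest in pig 4. The part of these sums in the AQP3 spread was not tested.

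AQP5, the water channel of serous gland cells, had 203, 45, 165, 17 and 6 counts in the organoids of pigs 1 to 5, against 4473, 1577, 1274, 2245 and 5117 counts in the papillae of pigs 1 to 5. It averaged 3.62 ± 3.83 CPM in organoids and 181 ± 123 CPM in papillae (SD, n = 5 each), 50.5-fold lower in organoids (log2 fold change -5.66, SE 0.95). The groups did not overlap. Within papillae AQP5 was among the more variable genes, with an SD of log2 CPM of 1.06 that only 1.68% of 10577 genes exceeded.

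AQP1, the water channel of endothelium and red cells, had 0 counts in all 5 organoid libraries and 2995, 3869, 3425, 2435 and 1996 counts in the papillae of pigs 1 to 5. Papillae averaged 168 ± 24.2 CPM (SD, n = 5) on the scale of this pair of groups. On the scale of all 22 libraries, 0 counts over the organoids allow at most 0.0238 CPM there. With a floor of 3 counts over the group, AQP1 was at least 7458-fold lower in organoids on the scale of the pair. Its spread among papillae was ordinary, since 43.9% of genes had a larger SD.

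AQP4, the water channel of muscle fibres and astrocytes, also had 0 counts in all 5 organoid libraries. The papillae of pigs 1 to 5 held 13, 10, 173, 22 and 39 counts, which is 0.802, 0.501, 8.77, 1.40 and 2.61 CPM. Pig 3 alone gave more than the 84 counts of the other 4 papillae together. AQP4 was at least 130-fold lower in organoids, and at least 55.1-fold lower without the papilla of pig 3.

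AQP7, the glycerol channel of fat cells, was low everywhere, with 5, 0, 2, 3 and 1 counts in organoids and 20, 15, 25, 18 and 11 counts in papillae, in the order of pigs 1 to 5. These counts did not overlap. The fitted level was 11.5-fold lower in organoids (log2 fold change -3.52, SE 0.55). AQP9 had 0 counts in all 10 libraries. On the scale of all 22 libraries this allows at most 0.0238 CPM in organoids and 0.0373 CPM in papillae.

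AQP11, the aquaporin of inner membranes, was the exception among the 6 that passed the filter. It had 63, 246, 77, 218 and 149 counts in the organoids of pigs 1 to 5 and 25, 33, 28, 12 and 13 counts in the papillae of pigs 1 to 5. Every organoid library was above every papilla. AQP11 averaged 5.67 ± 3.08 CPM in organoids and 1.25 ± 0.406 CPM in papillae (SD, n = 5 each), 4.50-fold higher in organoids (log2 fold change 2.17, SE 0.41, edgeR adjusted p = 0.000667).

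**Figure D2:**
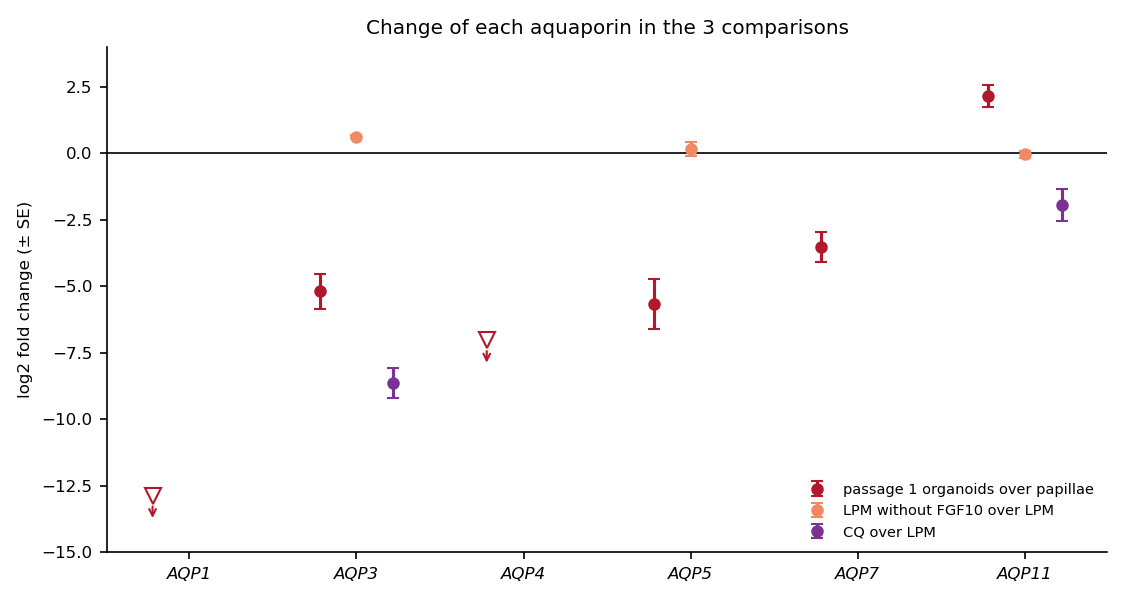
Log2 fold change of each aquaporin that passed the filter on low counts, with SE, for passage 1 organoids over papillae, LPM without FGF10 over LPM, and CQ over LPM. Open triangles with arrows mark upper limits for AQP1 and AQP4, which had no count in passage 1 organoids; AQP11 is the gene above 0 in organoids over papillae, at 2.17.

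Papillae are mixed tissue, and the markers of several cell types moved with these channels. Summed endothelial markers (9 genes) were 38.4 to 143 CPM in organoids and 498 to 739 CPM in papillae, with 8 of 9 called lower and none of them at 0 in organoids. Summed red cell markers (4 genes) were 0.0439 to 0.579 CPM in organoids and 16.9 to 51.3 CPM in papillae, with HBB at 0 in organoids and both genes tested called lower. Summed skeletal muscle markers (10 genes) were 0.976 to 4.43 CPM in organoids and 329 to 9761 CPM in papillae, all 10 called lower, with MYH1, MYH2 and DES at 0 in organoids. Summed markers of gland acinar cells (7 genes) were 26.8 to 297 CPM in organoids and 50990 to 250200 CPM in papillae, all 7 called lower and none at 0. Summed fat cell markers (6 genes) were 0.287 to 1.08 CPM in organoids and 3.50 to 37.9 CPM in papillae, with PLIN1 and LEP at 0 in organoids and 1 of the 2 genes tested called lower. Summed fibroblast markers (6 genes) were 0.778 to 3.12 CPM in organoids and 1850 to 6898 CPM in papillae, all 6 called lower and none at 0 over the organoids. Summed Schwann cell and nerve markers (6 genes) were 0.451 to 1.54 CPM in organoids and 254.5 to 373.4 CPM in papillae, all 6 called lower, with SCN7A among those at 0 in organoids. Summed myeloid markers (8 genes) were 22.8 to 97.2 CPM in organoids and 135.7 to 200.0 CPM in papillae, with 5 called lower and 1 higher of 7 tested and C1QA, C1QB and CD163 at 0 in organoids. Markers near 0 in organoids passed the filter through papillae alone, so these counts of calls are descriptions. In bulk samples, fewer cells of a type and less RNA per cell cannot be told apart, and the part of these cell types in the aquaporin differences was not tested.

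The epithelial markers moved too. Suprabasal markers summed to 1549 to 3115 CPM in organoids and 26130 to 51650 CPM in papillae, with all 8 genes called lower. Basal markers summed to 3598 to 7364 CPM in organoids and 10160 to 12960 CPM in papillae, with 3 genes called higher and 3 called lower. AQP3, which both layers are known to hold, thus fell in organoids beside a marked fall of the suprabasal list and a smaller one of the summed basal list. The part of these layers in the AQP3 difference was not tested.

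From pig to pig, the papilla levels of these genes can be set beside the marker sums of their usual cell types. The skeletal muscle sum was 1423, 329, 9761, 2406 and 3510 CPM in the papillae of pigs 1 to 5, which places the pigs in the same order as AQP4 does, from pig 3 down to pig 2. The gland sum was 134100, 50990, 73780, 137400 and 250200 CPM. Pig 5 was highest in both this sum and AQP5, and pigs 2 and 3 were lowest in both. The endothelial sum was 511, 739, 634, 552 and 498 CPM, with pig 2 highest and pig 5 lowest in this sum and in AQP1. Pig 1 had the AQP1 level after the highest, 185 CPM, but the endothelial sum just above the lowest. Below pig 5, the pigs also differed in order between AQP5 and the gland sum. Pig 2 had the lowest gland sum and pig 3 the lowest AQP5. With 5 animals per pattern these orders are descriptions, and no test was made.

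**Figure D3:**
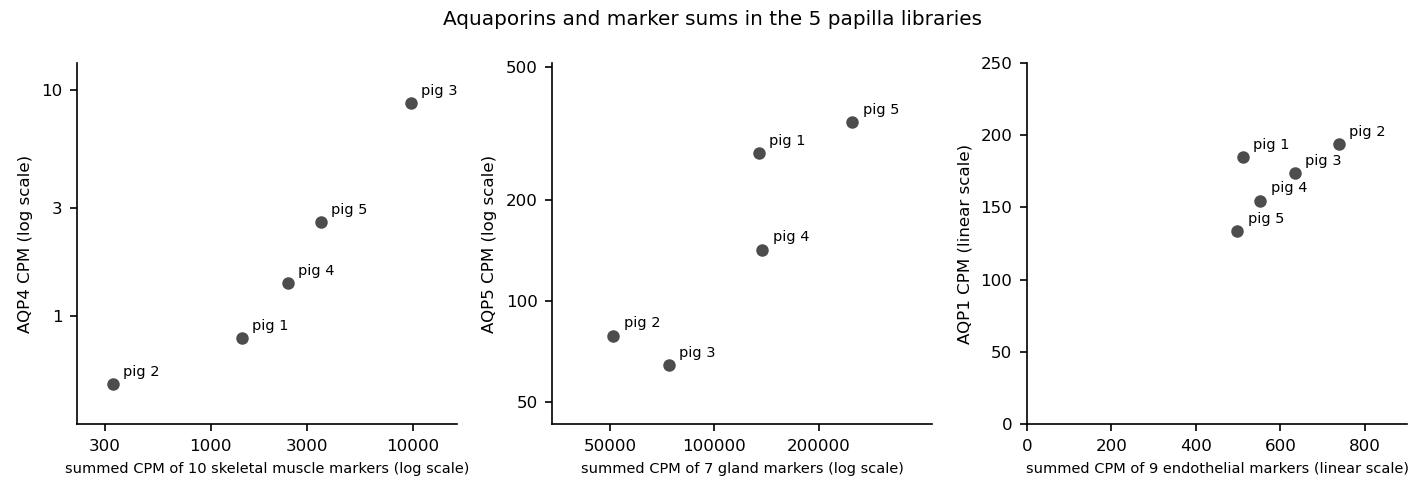
Levels in the 5 papilla libraries of AQP4 against the sum of 10 skeletal muscle markers (both log axes), of AQP5 against 7 gland acinar markers (both log axes) and of AQP1 against 9 endothelial markers (linear axes), in CPM, 1 point per pig. Pig 3 is at the top right for AQP4 (8.77 CPM) and pig 5 for AQP5 (343 CPM), while AQP1 spans only 134 to 194 CPM.

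The 5 other aquaporin genes in the files were low throughout. AQP2, the vasopressin-regulated channel of the kidney, had 0 counts in organoids and 10, 4, 9, 13 and 6 counts in the papillae of pigs 1 to 5, at least 21.3-fold lower in organoids. AQP6, a kidney channel of intracellular vesicles, had 0 counts in organoids and 11, 11, 5, 3 and 9 counts in the papillae, at least 19.8-fold lower in organoids. Neither gene passed the filter, so neither was tested. AQP8 had 0 counts in organoids and 2 in papillae, and AQP10, an aquaglyceroporin of the gut, had 15 counts in organoids and 23 in papillae.

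MIP, the lens channel also called AQP0, had 103, 95, 63, 101 and 119 counts in the organoids of pigs 1 to 5 and 19, 43, 41, 23 and 24 counts in the papillae, 2.14-fold higher in organoids (log2 fold change 1.10, SE 0.24, edgeR adjusted p = 0.00197). MIP shares 98 exon bases with SPRYD4 on the other strand, and strand was not used in counting, so reads of both cannot be told apart. SPRYD4 was 1.75-fold higher in organoids (edgeR adjusted p = 0.000268).

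TPM, in which counts are divided by exon length, allow levels to be compared between genes. All 12 aquaporin genes together came to 84.1 ± 53.9 TPM in passage 1 organoids and 1765 ± 468 TPM in papillae (SD, n = 5 each). AQP3 made up 58.5 ± 21.9% of the aquaporin TPM in organoids and 79.4 ± 9.21% in papillae. AQP11 made up 23.6 ± 19.3% in organoids and 0.118 ± 0.0366% in papillae, and AQP5 made up 11.2 ± 14.7% in organoids and 16.1 ± 9.87% in papillae. The organoid make-up differed between pigs. AQP3 held 42.3, 66.6, 83.6, 29.9 and 70.2% of the aquaporin TPM in the organoids of pigs 1 to 5. In the organoid of pig 4 AQP11 held the most, at 55.0%.

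**Figure D4:**
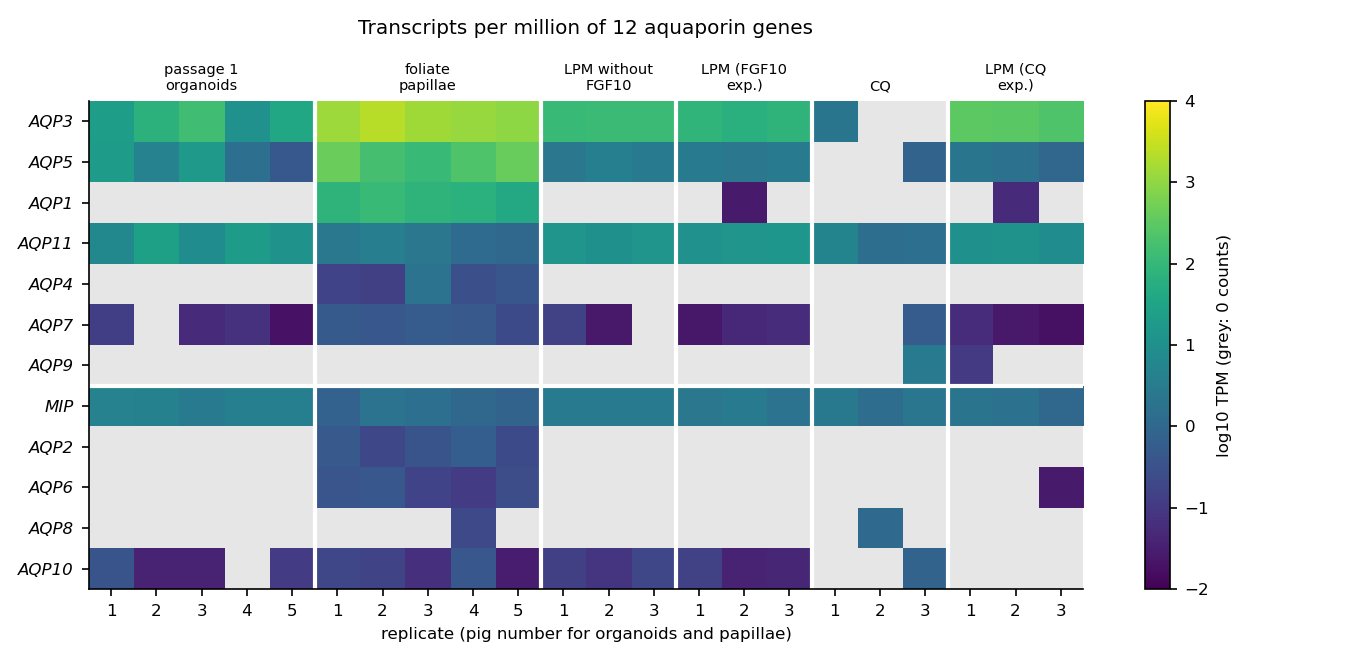
Level in TPM (colour, log10 scale, grey where a library had 0 counts) of 12 aquaporin genes in 22 libraries, with the 7 genes of the list above the white line and the 5 others below it. AQP3, AQP5 and AQP1 are brightest in the 5 papillae, AQP11 and MIP are present in every library, and AQP1, AQP4, AQP2 and AQP6 are grey in all 5 passage 1 organoid libraries.

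Without FGF10, AQP3 was modestly higher, and the groups overlapped for AQP5 and AQP11. AQP3 had 996, 1296 and 1035 counts in the 3 libraries without FGF10 and 919, 694 and 722 counts in the 3 LPM libraries. That was 49.7, 55.3 and 52.1 CPM without FGF10 and 36.9, 29.8 and 34.6 CPM in LPM. All 3 libraries without FGF10 were above all 3 in LPM. The difference was 1.55-fold (log2 fold change 0.63, SE of the fit 0.06). Since the gene was chosen on this difference, no test is given, and the SE is not to be read as one. The fit draws on the spread of other genes too, while the SD of AQP3 itself within groups was 0.122 in log2 CPM. AQP3 varied more than most genes among the LPM libraries. Its SD of log2 CPM was 0.155 there, against a median of 0.0559, and 3.62% of 9503 genes had a larger SD. In the libraries without FGF10 its SD was 0.0766, and 33.2% of 9525 genes had a larger one. In this contrast 1.78% of 14262 genes were called (0.582% higher, 1.2% lower), and for 16.6% the groups did not overlap (8.09% higher, 8.55% lower).

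Of the 7 genes 3 passed the filter on low counts in the FGF10 experiment. AQP5 had 21, 40 and 26 counts without FGF10 and 33, 25 and 26 counts in LPM, with a log2 fold change of 0.17 (SE 0.27). AQP11 had 113, 103 and 113 counts without FGF10 and 113, 135 and 121 counts in LPM, with a log2 fold change of -0.04 (SE 0.15). Neither gene separated the groups. AQP7 had 5, 1 and 0 counts without FGF10 and 1, 2 and 2 counts in LPM, AQP1 had 0 counts without FGF10 and 1 in LPM, and AQP4 and AQP9 had 0 counts in all 6 libraries.

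Epithelial marker sums shifted slightly in the same libraries. Suprabasal markers summed to 2981 to 3102 CPM without FGF10 and 3250 to 3367 CPM in LPM, with 3 of 6 tested genes called lower. Basal markers summed to 13290 to 13300 CPM without FGF10 and 13420 to 13950 CPM in LPM, with 1 of 6 called lower. Both sums were thus lower in the group where AQP3 was higher, and their part in the AQP3 difference was not tested. Gland acinar markers overlapped, at 21.2 to 57.8 CPM without FGF10 and 21.7 to 46.9 CPM in LPM.

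After the change to CQ, AQP3 was almost absent. It had 16, 0 and 0 counts in the 3 CQ libraries and 2795, 2920 and 3171 counts in the 3 LPM libraries, which is 1.07, 0 and 0 CPM in CQ and 142.5, 143.0 and 128.4 CPM in LPM. The only AQP3 counts in CQ came from 1 library. The summed counts were 404-fold lower in CQ (log2 fold change of the fit -8.63, SE 0.58). Without CQ replicate 1, the only one with AQP3 counts, a floor of 3 counts gave a 1476-fold lower level. That floor covers counting error only, and the CQ libraries varied by more than counting error, so it is no firm limit. This contrast also chose the gene, and many other genes differed in it as well. Calls covered 47.9% of 13827 genes (23.1% higher, 24.8% lower in CQ), and for 61.1% the groups did not overlap (28.2% higher, 32.9% lower).

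AQP11 and AQP3 were the 2 of 7 genes that passed the filter in the CQ experiment. AQP11 had 35, 11 and 11 counts in CQ (2.35, 0.671 and 0.694 CPM) and 89, 109 and 111 counts in LPM (4.54, 5.34 and 4.49 CPM). All CQ libraries were below all LPM libraries, a 3.87-fold lower level in CQ (log2 fold change -1.95, SE 0.61), with a log2 fold change of -2.81 without CQ replicate 1. That library was the highest of the 3 CQ libraries for both AQP3 and AQP11. AQP5 had 0, 0 and 6 counts in CQ and 19, 17 and 13 counts in LPM. AQP1 had 0 counts in CQ and 2 in LPM, and AQP4 had 0 counts in all 6 libraries.

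Against these falls, a few scattered counts of other aquaporins appeared in single CQ libraries. CQ replicate 3 had 16 counts of AQP7, against 1 or 2 in each LPM library, and 21 counts of AQP9, against 1 count over the 3 LPM libraries. These genes were at 0 in the other 2 CQ libraries. MIP overlapped between the groups, with 45, 25 and 38 counts in CQ and 43, 41 and 33 counts in LPM.

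The epithelial markers in CQ moved in opposite directions. Suprabasal markers summed to 3481 to 3661 CPM in CQ and 1190 to 1361 CPM in LPM, with 2 genes called higher and 1 lower of 7 tested. Basal markers summed to 4276 to 4557 CPM in CQ and 5909 to 6347 CPM in LPM, with 5 of 6 called lower and none at 0. The AQP3 level in CQ was thus near 0 beside a basal sum of at least 4276 CPM and a suprabasal sum of at least 3481 CPM. Gland acinar markers summed to 0.537 to 2.34 CPM in CQ and 8.14 to 10.1 CPM in LPM, with OBP2B, BPIFA2, BPIFB1 and PIGR at 0 in CQ. The part of these cell types in the AQP3, AQP5 and AQP11 levels was not tested.

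The 6 groups were also put on 1 joint scale, over all 22 libraries and the 26838 genes in both annotations. There AQP3 averaged 25.2 ± 23.7 CPM in passage 1 organoids and 947 ± 136 CPM in papillae (SD, n = 5 each). It averaged 53.2 ± 3.20 CPM without FGF10 and 34.5 ± 3.70 CPM in the LPM beside it, and 0.357 ± 0.619 CPM in CQ and 143 ± 7.28 CPM in the LPM beside it (SD, n = 3 each). From high to low the order of means was papillae, LPM beside CQ, LPM without FGF10, LPM beside it, passage 1 organoids and CQ. Passage 1 organoids ran from 4.49 to 64.0 CPM and overlapped both groups of the FGF10 experiment, whereas the other neighbours in this order did not overlap. Organoids in LPM thus had AQP3 means of 25.2, 34.5 and 143 CPM in 3 sets. The labels give the pigs and the passage only for the first set and the FGF10 content only for the first and second, and the third was counted with another featureCounts version, so these differences cannot be told apart.

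Ranked by TPM among all genes of a library, AQP3 stood at places 915 to 7971 in passage 1 organoids and 45 to 64 in papillae. It stood at places 1067 to 1186 without FGF10 and 1661 to 2102 in the LPM beside it. In the only CQ library with a count it stood at place 10542, against 363 to 460 in the LPM beside CQ.

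On the joint scale AQP11 was at nearly the same level in all organoid groups outside CQ. It averaged 5.96 ± 3.31 CPM in passage 1 organoids and 1.35 ± 0.450 CPM in papillae, 5.32 ± 0.705 CPM without FGF10 and 5.49 ± 0.729 CPM in the LPM beside it, and 1.24 ± 0.959 CPM in CQ and 4.96 ± 0.456 CPM in the LPM beside it. The 4 organoid groups outside CQ overlapped one another, and CQ overlapped papillae. AQP5 averaged 3.78 ± 3.98 CPM in passage 1 organoids and 194.5 ± 131.6 CPM in papillae. The 3 other groups outside CQ had AQP5 means of 0.802 to 1.38 CPM, all within the range of passage 1 organoids.

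By a fixed measure of likeness, the SD over 22 libraries of the difference in log2(CPM + 0.5), the genes nearest to AQP3 were ANKRD35 (1.19), LYPD3 (1.25) and SERPINB2 (1.43), against a median of 3.40 over 10189 genes. ANKRD35 averaged 1.12 CPM in CQ and 24.2 CPM in the LPM beside it, and 19.9 CPM in passage 1 organoids and 572 CPM in papillae. In the LPM of the FGF10 experiment ANKRD35 averaged 29.7 CPM, LYPD3 37.9 CPM and SERPINB2 11.3 CPM. In the LPM beside CQ they averaged 24.2, 35.9 and 12.2 CPM, without the much higher level that AQP3 had there. Without FGF10, where AQP3 was higher, ANKRD35 averaged higher (34.5 CPM) and LYPD3 and SERPINB2 lower (32.4 and 9.8 CPM). The genes nearest to AQP1 were CNFN (0.411), SBSN (0.630) and CD74 (0.852), and CNFN averaged 1.39 to 2.22 CPM in the 5 organoid groups and 1109 CPM in papillae. Those nearest to AQP5 were LOC100520572 (0.914), TNS1 (0.991) and EPS8L1 (1.03). Only genes with a mean log2 CPM of at least 3 over the 22 libraries were compared. AQP1 and AQP5 lie below that level themselves, so genes of their own mean level were left out of the search. These values rank genes over libraries of tissue and of culture together, and they are descriptions without a test.

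Genes that work beside the aquaporins, in glycerol metabolism, ion transport, cell volume and osmotic response, hydrogen peroxide handling and the anchoring of AQP4, were followed in 5 lists of 86 genes, 84 of them in the files. In organoids against papillae, 30 of 81 tested genes were higher (37%) and 27 were lower (33.3%), with a median log2 fold change of -0.06, against 32.4% and 35.1% and a median of -0.01 over all genes. The volume and osmotic list had 12 higher and 1 lower of 16 tested, with a median log2 fold change of 1.36. LRRC8D, a subunit of the volume-regulated anion channel, was 6.01-fold higher (edgeR adjusted p = 1.24e-06), and the taurine transporter SLC6A6 was 7.33-fold higher (adjusted p = 1.71e-06). LRRC8E, another subunit, was 1.78-fold lower (adjusted p = 0.0102).

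In the ion transport list 8 were higher and 5 lower of 21 tested. The sodium bicarbonate cotransporter SLC4A4 averaged 118 ± 32.1 CPM in organoids and 6.11 ± 1.68 CPM in papillae, 19.4-fold higher in organoids (edgeR adjusted p = 1.91e-07). The Na-K-2Cl cotransporter SLC12A2, which loads chloride into secreting cells, averaged 925 ± 227 CPM in organoids and 70.9 ± 33.9 CPM in papillae, 13.1-fold higher (adjusted p = 3.21e-06). The epithelial sodium channel subunit SCNN1G was 5.02-fold lower in organoids (adjusted p = 0.000144). The chloride transporter SLC26A9 had 1 count in organoids and 415 in papillae, a ratio of 631 with an exact 95% interval of 113 to 24975 for counting error only.

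In glycerol metabolism 3 were higher and 9 lower of 19. Glycerol kinase GK was 3.64-fold lower in organoids (edgeR adjusted p = 1.51e-06), and DGAT2, which makes triglyceride, was 37.8-fold lower (adjusted p = 2.00e-06). The mitochondrial glycerol phosphate dehydrogenase GPD2 was 2.40-fold higher (adjusted p = 2.19e-05) and phospholipase D1, PLD1, was 2.59-fold higher (adjusted p = 0.00568). In peroxide handling 6 were higher and 9 lower of 17. The peroxide-making oxidase DUOX1 and its partner DUOXA1 were 16.8-fold and 21.4-fold lower in organoids, while CYBA, a subunit of NADPH oxidases, was 2.84-fold and the peroxidase PRDX2 2.14-fold higher. In the AQP4 anchoring list 1 was higher and 3 lower of 8. SGCA, a part of the muscle dystrophin complex that passed the filter through its papilla counts alone, averaged 0.0464 ± 0.0721 CPM in organoids and 8.10 ± 6.08 CPM in papillae. DMD, dystrophin itself, was 4.84-fold lower, beside the fall in muscle markers above, and the syntrophin SNTB1 was 3.53-fold higher.

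**Figure D5:**
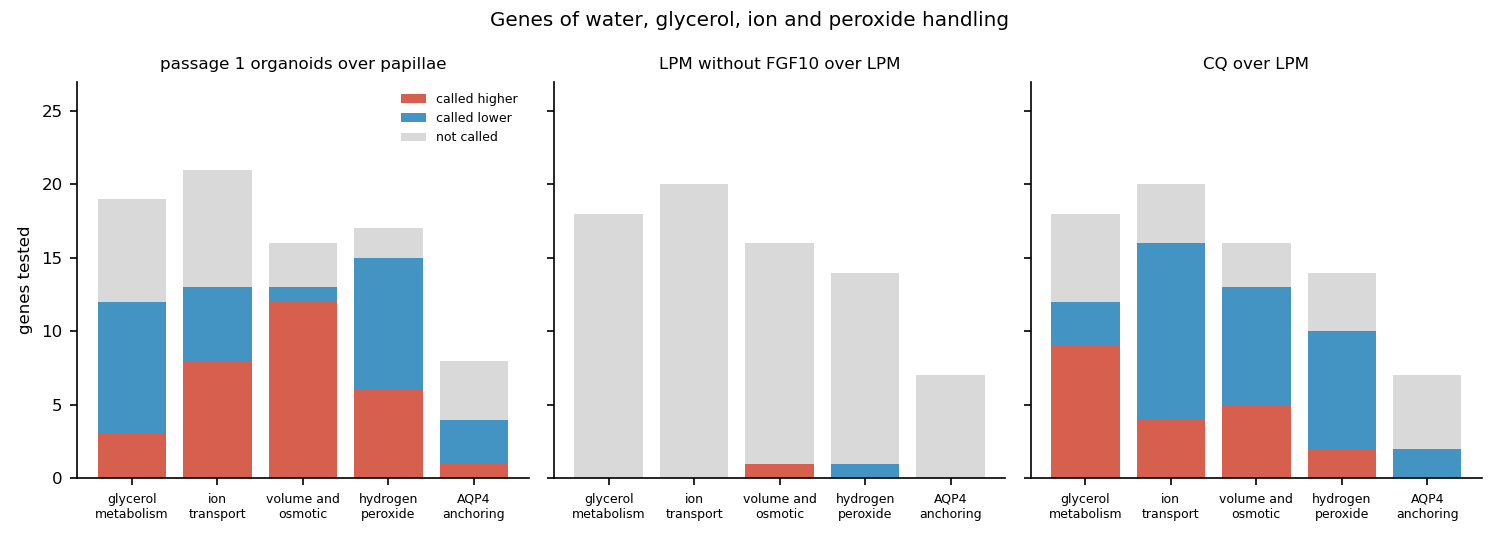
Number of tested genes called higher, called lower and not called (edgeR, adjusted p under 0.05) in 5 lists of genes that work beside aquaporins, for passage 1 organoids over papillae, LPM without FGF10 over LPM, and CQ over LPM. The volume and osmotic list is mostly higher in organoids (12 of 16), the FGF10 panel is almost all not called, and in CQ 12 of 20 ion transport genes are lower.

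Without FGF10, 1 of 75 tested genes of the same lists was higher and 1 was lower (1.33% each). Over all genes 0.582% were higher and 1.2% lower, so 1 gene in each direction does not set the lists apart. The myo-inositol transporter SLC5A3, which takes up an organic osmolyte, averaged 101 ± 7.45 CPM without FGF10 and 83.9 ± 7.05 CPM in LPM, 1.20-fold higher (edgeR adjusted p = 0.00784). DUOX1 averaged 15.4 ± 0.522 CPM without FGF10 and 19.5 ± 2.34 CPM in LPM (SD, n = 3 each), 1.27-fold lower (edgeR adjusted p = 0.0372). The count of lower genes was 0 with library size scaling, with DESeq2 and with limma-voom. When libraries were left out in turn both counts ran from 0 to 2, with 0 in both directions without LPM replicate 2.

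In CQ 20 of 75 tested genes were higher (26.7%) and 33 were lower (44%), against 23.1% and 24.8% over all genes, with a median log2 fold change of -0.19 in the lists and -0.07 over all genes. The ion transport list had 12 lower and 4 higher of 20 and a median log2 fold change of -1.26. Carbonic anhydrase CA12 averaged 29.5 ± 4.10 CPM in CQ and 1061 ± 120 CPM in LPM, 36.0-fold lower in CQ (edgeR adjusted p = 1.13e-07). SLC12A2 averaged 127 ± 15.5 CPM in CQ and 1223 ± 169 CPM in LPM (SD, n = 3 each), 9.62-fold lower (adjusted p = 5.82e-07). The anion exchanger SLC4A2 was 2.45-fold higher in CQ.

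In glycerol metabolism 9 were higher and 3 lower of 18 in CQ. ABHD5, the activator of the triglyceride lipase PNPLA2, was 5.35-fold higher and phospholipase D2, PLD2, 2.81-fold higher, while the phosphatase LPIN1 was 12.0-fold lower (edgeR adjusted p = 0.000266) and GK 2.77-fold lower (adjusted p = 0.00316). In the volume list 5 were higher and 8 lower of 16. LRRC8B and the sorbitol-making enzyme AKR1B1 were 5.37-fold and 2.60-fold higher, and LRRC8A, the obligatory subunit of the volume-regulated anion channel, was 1.95-fold lower (adjusted p = 0.000345), as was the cotransporter kinase STK39, by 4.72-fold. In peroxide handling 2 were higher and 8 lower of 14. DUOX1 was 2.59-fold and SOD2 1.43-fold higher, and the peroxidases PRDX6 and PRDX3 were 3.85-fold and 2.72-fold lower. In the AQP4 anchoring list 2 of 7 were called, both lower, among them DTNB by 1.69-fold.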

How the data were processed

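RNA sequencing counts of 22 pig libraries were used. The authors deposited whole-number counts per gene, not normalized. Per the file headers they came from featureCounts 2.0.3 (16 libraries) and 2.0.6 (the 6 of the CQ experiment), ignoring strand and leaving out multi-mapping pairs. The submitters' processing notes name STAR 2.7.10b, FastQC 0.11.9, MultiQC 1.14, featureCounts and DESeq2. The exon length per gene, another column of the deposited files, gave TPM. An entry without a gene name (0.326 to 0.477% of counts in the CQ experiment) was left out. Each contrast was fitted on its own libraries in R 4.3.3 by edgeR 4.0.16, with filterByExpr, TMM scaling and a 2-sided quasi-likelihood F test. P-values were adjusted by Benjamini-Hochberg over the whole table, with a threshold of 0.05. CPM are scaled by TMM. The SE of a log2 fold change is its size divided by the square root of F.

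Where a group had 0 counts, folds use a floor of 3 counts summed over the group, and floors and intervals cover counting error only. Organoids and papillae come from the same pigs per the labels, and libraries of 1 pig correlated at 0.0355 to 0.11 after the group means were removed. The fit with the pig as a block was run beside the fit without it. Other alternatives were RLE scaling, library size alone, no filter, a filter of 10 CPM, DESeq2 1.42.0, limma-voom (limma 3.58.1) and leaving out each library. The code was tested on simulated data.

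The 7 genes, the lists and the rule for named genes were chosen with earlier results of these data known. Named are all aquaporins in the files, up to 2 called genes per list, direction and contrast by smallest p, and the 3 genes nearest in pattern to each aquaporin reaching 10 CPM in a group mean, among genes with a mean log2 CPM of at least 3. Some genes named by this rule are not reported here. Gene symbols matched the reference table for 26862 of 27376 and 29850 of 29850 genes. No sequences are shown.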

Additional observations from a re-analysis of the deposited data

Results flagged for a closer look

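Among 10 groups of 5 libraries in which an aquaporin was detected, 1 held a library that stood apart from the rest. AQP4 reached 9.43 CPM on the joint scale in the papilla of pig 3, and the next papilla was at 2.78 CPM, a gap of 0.749 of the whole range against a critical value of 0.71. Chance flags about 1 in 20 such groups if values are normally distributed, which was not checked for these CPM. The same papilla had the highest sum of skeletal muscle markers, 9761 CPM against 329 to 3510 CPM in the others, and the part of muscle in this value was not tested.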

How the results depend on the processing

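In organoids against papillae no aquaporin direction reversed under the alternatives run, and AQP3 and AQP11 were called under every alternative in which they were tested. AQP4, AQP7 and AQP11 could not be tested with a filter of 10 CPM. With the pig as a replicate block AQP3 had a log2 fold change of -5.73 (edgeR adjusted p = 0.000146), and the block changed no call of these genes and moved no count of calls by over 1.5 times. In the media experiments same-numbered libraries share only a number, with correlations of -0.0457 to 0.0475, and the replicate block gave 69 genes higher and 165 lower without FGF10. The filter of 10 CPM left 3498 genes higher and 3382 lower in organoids, with 10493 genes tested against 16311 in the main fit. Without a filter 132 genes were higher and 297 lower without FGF10, and among genes of the 5 transport lists 2 were higher and 3 lower. Lower transport genes without FGF10 numbered 0 with library size alone, 0 with the filter of 10 CPM, 0 with DESeq2 and 0 with limma-voom. In CQ limma-voom gave AQP3 a log2 fold change of -10.40. The cause of these moves was not tested. When libraries were left out in turn, genes called without FGF10 ranged from 37 to 90 higher and from 82 to 204 lower (43 and 82 without LPM replicate 2, 37 and 91 without replicate 1 of the group without FGF10), and transport genes from 0 to 2 in both directions. The AQP5 log2 fold change without FGF10 ranged from -0.047 to 0.32 and that of AQP11 from -0.16 to 0.08, both crossing 0, and in CQ that of AQP3 from -14.39 to -8.05 and that of AQP11 from -2.81 to -1.68, lowest without CQ replicate 1. Depth limits what the low counts of AQP7 and AQP9 can show in every group, and the CQ libraries had the lowest depth.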

Other observations

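Some aquaporin counts stood in single libraries. AQP8 had 8 counts in CQ replicate 2 and 0 in the other 2 CQ libraries and in the 3 LPM libraries beside them. AQP10 had 15 counts in CQ replicate 3 and 0 in the other 5 libraries of that experiment. No explanation of these values was tested.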
